A study of Homo sapiens with 12 samples.

Results

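Messenger RNA of 38 genes of synaptic vesicles and of the machinery that releases them was examined in SH-SY5Y cells without and with FMR1. The 38 genes were taken as a list of symbols, covering calcium sensors, vesicle proteins, fusion proteins, priming factors and endocytic proteins. The list was chosen with earlier results of these data known. Member counts set beside the shares over all genes thus describe the list and do not test it. All 38 were found among the 59087 features of the count table. SH-SY5Y is an established human neuroblastoma line with properties of immature sympathetic neurons. The knockout (KO) cells were 3 lines, made independently of each other, in which FMR1 had been disrupted; the comparison cells were wild-type (WT) SH-SY5Y. The product of FMR1, FMRP, binds mRNA and controls its translation. Cells of both genotypes grew for 2 weeks in SILAC medium with dialyzed serum, in which lysine and arginine carried either heavy isotopes (heavy medium) or ordinary ones (light medium). Each KO line gave 1 library per medium, so KO cells contributed 6 libraries, and WT cells contributed 3 libraries per medium. Each line stands for 1 derivation of cells, so effects of losing FMR1 and effects of deriving a line cannot be told apart. The sources used here do not say whether the WT libraries came from separate cultures, and p-values then measure the spread between these libraries, which may be technical.

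Neurons store transmitter in synaptic vesicles that dock at the active zone of the plasma membrane, are primed there, and fuse when calcium enters. Fusion is driven by SNARE proteins on vesicle and plasma membrane, triggered by synaptotagmins that bind calcium, and followed by dynamin-dependent retrieval of the membrane. Neuroendocrine cells such as the chromaffin lineage, to which sympathetic neuroblastoma is related, use much of the same machinery to release dense-core granules.

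Libraries held 25935152 to 40257027 counts, and 16704 genes passed the filter on low counts. FMR1 mRNA, the targeted transcript, was lower in all 6 KO libraries than in any WT library. It reached 22.4 and 11.4 CPM in line 1 (heavy and light medium), 12.8 and 11.5 CPM in line 2 and 7.19 and 9.06 CPM in line 3, against 35.9 to 42.0 CPM in WT cells. CPM are read counts scaled to a common library size after TMM normalisation. The library labelled KO line 1, heavy, thus kept 59.3% of the mean WT level of FMR1 mRNA. Some results, including the median change of the members in line 1, are also given without it. Most values of single members in line 1 include it. Noradrenergic markers were present in every library: the 15 markers summed to 9000 to 9440 CPM in line 1, 7960 to 8360 CPM in line 2 and 9750 to 10400 CPM in line 3, against 9970 to 10900 CPM in WT libraries, although INSM1 and TH averaged only 0.0529 and 0.616 CPM in WT cells. The 8 markers of central glutamatergic and GABAergic neurons summed to at most 1.36 CPM in KO libraries and 1.59 CPM in WT libraries, and 4 of them were under 0.1 CPM everywhere.

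Most of the machinery was well expressed in these cells. Per kilobase of exon, which allows levels of different genes to be compared, SYT11 was the most abundant member at 80.3 CPM per kb in KO cells and 63.3 CPM per kb in WT cells. It was followed by the plasma-membrane SNARE SNAP25 (62.8 CPM per kb in KO and 46.2 in WT), the complexin CPLX2 (29.2 and 26.6), the vesicle glycoprotein SV2A (28.6 and 24.2). The small GTPase RAB3A came next in WT at 22.9, but at 23.3 CPM per kb in KO cells it stood below RIMS3 (25.4) and VAMP2 (23.9). At the low end stood RAB3B at 0.913 CPM per kb in KO cells and 0.395 in WT cells, DNM3 at 0.162 and 0.255, CADPS at 0.232 and 0.182, and SYN3 at 0.113 and 0.058. Per kilobase, RAB3A was above RAB3C and RAB3B, RIMS3 above RIMS2 and RIMS1, and UNC13A above UNC13B in both genotypes. The other 3 members were not tested because their counts were too low. SV2B had 4 counts over all KO libraries and 7 over all WT libraries, CADPS2 had 3 and 1, and the endocytic adaptor gene AMPH had 1 and 1. The remaining 35 members were tested.

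**Figure D1:**
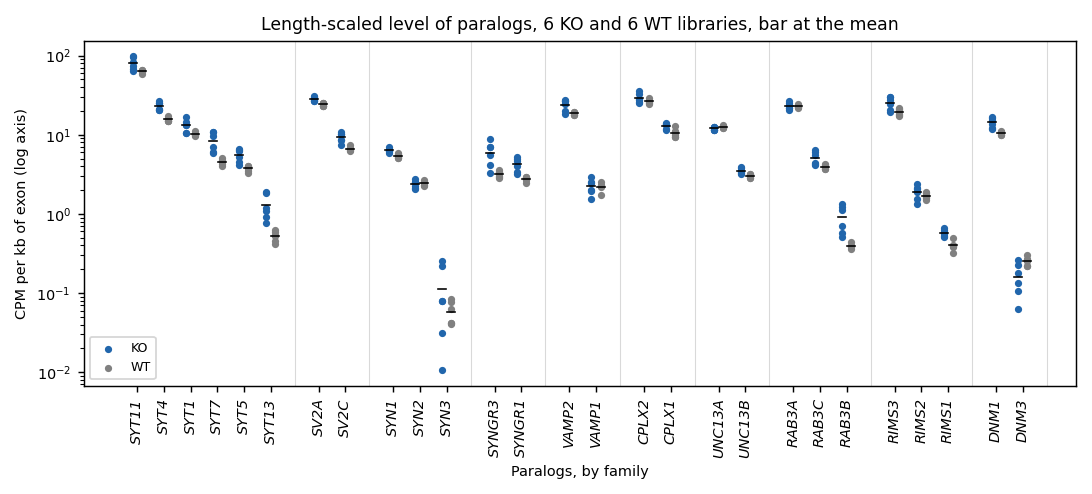
Length-scaled mRNA level of paralogous members, in CPM per kilobase of exon on a log axis; points are the 6 KO (left, blue) and 6 WT (right, grey) libraries of each gene and bars are means. SYT11 is highest at 80.3 CPM per kb in KO and 63.3 in WT, and SYN3 is lowest and most scattered.

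KO cells had more mRNA of most members than WT cells. Over both media, 23 of the 35 tested members rose, 0 fell and 12 did not pass; of all genes tested, 15% rose and 9.78% fell (edgeR quasi-likelihood test with medium as a covariate, Benjamini-Hochberg adjusted p under 0.05). The median log2 fold change was 0.35 over members and 0.0029 over all genes. Most rises were small. Those of SYT13, RAB3B, SYNGR3, SYT7 and SYNGR1 exceeded 1.5-fold. Added over all 38 members, the mRNA came to 2511 and 2845 CPM in line 1, 2934 and 2914 CPM in line 2 and 2349 and 2318 CPM in line 3, against 2045 to 2163 CPM in WT libraries. All KO sums thus lay above all WT sums, with line 3 nearest to WT. For 12 members each of the 6 KO libraries was above each of the 6 WT libraries (6.54% of all genes), and for 0 members each was below (4% of all genes). That fit counts each line through 2 libraries. A further edgeR fit used counts summed per line. Heavy and light WT libraries with the same number were summed as well, which left 3 sums in each genotype. There, SYT4 (adjusted p = 0.0353) and RIMS1 (adjusted p = 0.039) were the 2 members that passed, both higher, while 1.09% of all genes rose. In the fit on single libraries without the heavy library of line 1, 22 members rose and 0 fell. Of all genes, 13.4% then rose and 9.02% fell.

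**Figure D2:**
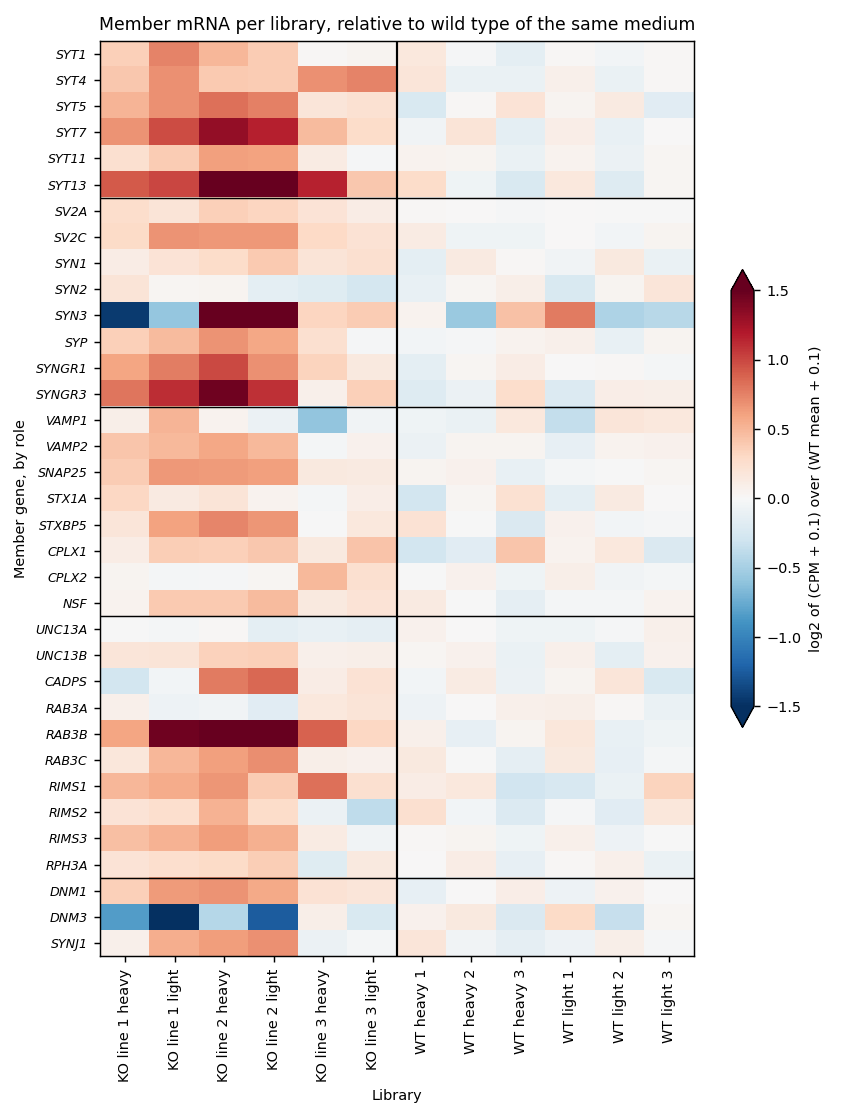
Each row is a tested member, grouped by role, and each column a library, KO lines 1 to 3 at the left and WT at the right; colour is the log2 of (CPM + 0.1) over (mean WT CPM of the same medium + 0.1), red above and blue below WT. Lines 1 and 2 are red across most rows, line 3 is paler, and DNM3 and SYN3 are blue in line 1.

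The KO lines were then compared with WT one at a time. In line 1, 24 members rose and 2 fell (15.4% and 12.8% of all genes), with a median log2 fold change of 0.32. In line 2, 28 rose and 1 fell (22.9% and 20.1% of all genes), with a median of 0.54. In line 3, 6 rose and 0 fell (3.27% and 1.73% of all genes), with a median of 0.16. These 3 comparisons share the same 6 WT libraries. Both libraries of the line lay above all WT libraries for 24 members in line 1, 28 in line 2 and 15 in line 3 (19.6%, 26.5% and 12% of all genes), and below them all for 2 members in each line (17.4%, 22.8% and 9.64% of all genes). In line 1, the heavy library lay between the mean of the WT heavy libraries and the light library of the same line for 23 of the 24 members that rose. STX1A was the exception. These members were picked through the same libraries and the share over all genes was not computed, so this order is not a trait of the members. Without the heavy library of line 1, which leaves 1 library in that line, the median log2 fold change was 0.48 over members and -0.00059 over all genes. Without the light library of line 1, 16 members rose and 1 fell there, while the calls over all genes dropped to 1538, against 4714 with it (6.09% of all genes rose and 3.03% fell). Over the tested members, the median log2 ratio to WT of the same medium was 0.24 (heavy) and 0.48 (light) for line 1, 0.62 and 0.49 for line 2 and 0.14 and 0.15 for line 3, against -0.06 to 0.02 in WT libraries set against the other WT libraries of their medium.

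Markers of cell type differed between the lines as well. The noradrenergic sum was lower in lines 1 and 2, where most members rose, than in any WT library, and DBH, the enzyme that makes noradrenaline, averaged 1340 CPM in line 1, 946 CPM in line 2 and 1840 CPM in line 3, against 2250 CPM in WT. Of its 14 tested markers, 4 rose and 5 fell in line 1, 4 rose and 7 fell in line 2, and 1 rose and 1 fell in line 3. The 14 mesenchymal-type markers summed to 411 and 478 CPM at the lowest and highest in line 1, 399 and 407 CPM in line 2 and 471 and 504 CPM in line 3, against 525 to 545 CPM in WT. TWIST1 made up most of that sum, with means of 249, 214 and 291 CPM in lines 1, 2 and 3, against 335 CPM in WT. VIM was higher in KO, at means of 59.5, 59.7 and 30.1 CPM in lines 1, 2 and 3, against 22 CPM in WT, and so was CD44, at 1.21, 3.45 and 0.915 CPM, against 0.471 CPM in WT. Of the 11 tested markers, 2 rose and 7 fell in line 1, 2 rose and 8 fell in line 2, and 1 rose and 1 fell in line 3. PRRX1 and YAP1, which help define these cells, were under 0.1 CPM in every library. The 8 Schwann-type and glial markers summed to 3.78 to 6.03 CPM in line 1, 5.19 to 5.91 CPM in line 2 and 2.01 to 2.53 CPM in line 3, against 2.03 to 2.87 CPM in WT, and SOX10, FOXD3, MBP and GFAP were under 0.1 CPM everywhere. The part of these differences in the members' changes was not tested. In such bulk libraries a change in the number of cells of a type and a change in RNA per cell cannot be told apart.

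**Figure D3:**
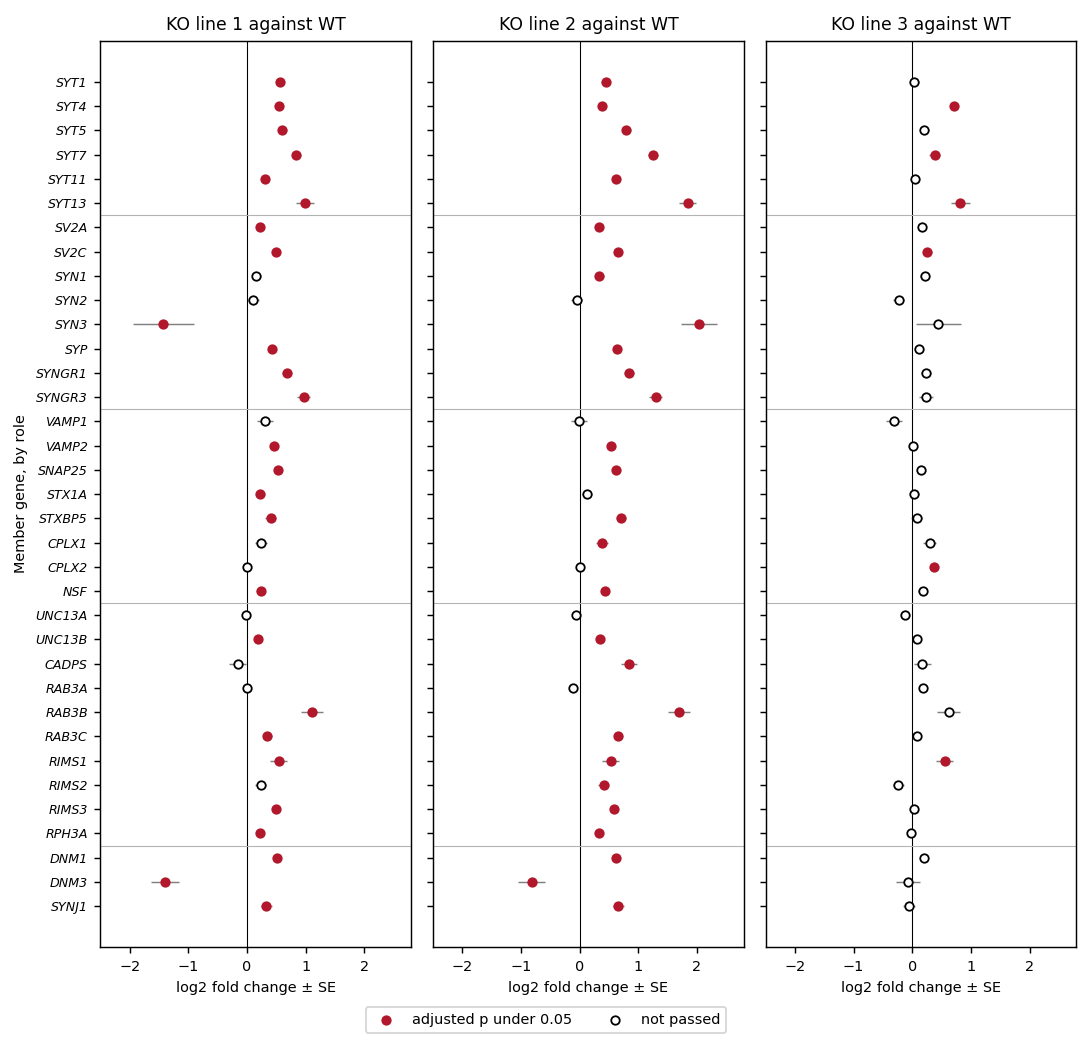
Log2 fold change of each tested member in KO line 1, 2 and 3 against WT (x axis; bars are SE), with members by role on the y axis; filled points passed an adjusted p of 0.05 and open points did not. Filled points number 26 in line 1, 29 in line 2 and 6 in line 3.

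All 6 synaptotagmins were higher in KO cells over both media, and 6, 6 and 3 of them rose in lines 1, 2 and 3. SYT4 (chromosome 18, 43267878 to 43277650, minus strand, GRCh38), a vesicle synaptotagmin whose first C2 domain does not bind calcium, rose in each line. It stood at 92.8 and 113 CPM in line 1 (heavy and light medium, as for each line below), 91.9 and 91.7 CPM in line 2 and 113 and 118 CPM in line 3, and in WT at 67.0 CPM at the lowest, 69.0 at the median and 76.4 at the highest. Every KO library was above every WT library. The log2 fold change was 0.56 over both media (SE 0.071, edgeR adjusted p = 0.00049), and 0.55, 0.39 and 0.71 in lines 1, 2 and 3 (adjusted p = 6.36e-06, 0.000132 and 1.72e-06). In line 3, SYT4 had the smallest adjusted p of the members and was the 1 member of the 6 that rose there whose call held under each alternative run.

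The 250 bases before the RefSeq start of SYT4 (GRCh38.p14, chr18:43277491-43277740, minus strand) are shown because this gene rose in each line; capitals mark the E-box CAGGTG, the letters bound by several basic helix-loop-helix and zinc-finger factors.
SYT4: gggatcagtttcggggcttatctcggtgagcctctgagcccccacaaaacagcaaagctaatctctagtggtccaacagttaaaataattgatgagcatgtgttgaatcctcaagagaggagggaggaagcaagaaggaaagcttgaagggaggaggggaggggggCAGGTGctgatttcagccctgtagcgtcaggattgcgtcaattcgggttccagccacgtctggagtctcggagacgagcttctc

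SYT7, a high-affinity calcium sensor of dense-core granule release and asynchronous release, changed more and less evenly. It was at 41.3 and 57.2 CPM in line 1, 64.4 and 65.0 CPM in line 2 and 35.8 and 35.1 CPM in line 3, against 24.0, 27.8 and 30.3 CPM (lowest, median, highest) in WT. The groups did not overlap, and line 2 was highest. Its log2 fold change was 0.87 over both media (SE 0.164, edgeR adjusted p = 0.00526), 0.84 in line 1, 1.25 in line 2 and 0.38 in line 3 (adjusted p = 0.0133; without the line 3 heavy library 0.388). SYT13, a synaptotagmin relative that lacks calcium-binding residues, had the largest fold change of all members. It stood at 4.92 and 6.39 CPM in line 1, 10.4 and 10.0 CPM in line 2 and 5.86 and 4.21 CPM in line 3, against 2.28, 2.89 and 3.38 CPM in WT. No KO library reached down into the WT range, and line 2 stood well above the other lines. The log2 fold change of SYT13 was 1.29 over both media (SE 0.223, edgeR adjusted p = 0.00277), 0.99 in line 1, 1.85 in line 2 and 0.82 in line 3 (adjusted p = 0.00417; without the line 3 heavy library 0.355).

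SYT5, a synaptotagmin found on dense-core granules, also rose in KO cells without overlap between the groups. Its levels were 28.3 and 33.1 CPM in line 1, 35.3 and 34.8 CPM in line 2 and 22.5 and 24.1 CPM in line 3, against 17.7, 20.4 and 21.8 CPM in WT. The log2 fold change was 0.56 over both media (SE 0.111, edgeR adjusted p = 0.00504), but in line 3 it did not pass (0.21, adjusted p = 0.184). SYT11, which acts in vesicle trafficking and endocytosis and does not bind calcium, was at 385 and 439 CPM in line 1, 501 and 513 CPM in line 2 and 356 and 332 CPM in line 3, against 311, 334 and 346 CPM in WT. Line 3 lay just above the WT range in heavy medium and within it in light medium, and the other lines lay above it. SYT11 rose over both media (log2 0.34, SE 0.1, edgeR adjusted p = 0.0271), and in lines 1 and 2 (0.31 and 0.61) but not in line 3 (0.05, adjusted p = 0.662). SYT1, the fast calcium sensor of transmitter release, was at 67.8 to 110.2 CPM in KO and 62.5 to 71.8 CPM in WT. It rose over both media (log2 0.36, SE 0.107, adjusted p = 0.0282), with 0.56 in line 1, 0.45 in line 2 and 0.03 in line 3. The call of SYT1 over both media was lost without any of 8 single libraries (adjusted p = 0.0529 to 0.0721), and that of SYT11 without any of 9 (adjusted p = 0.0514 to 0.0612).

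**Figure D4:**
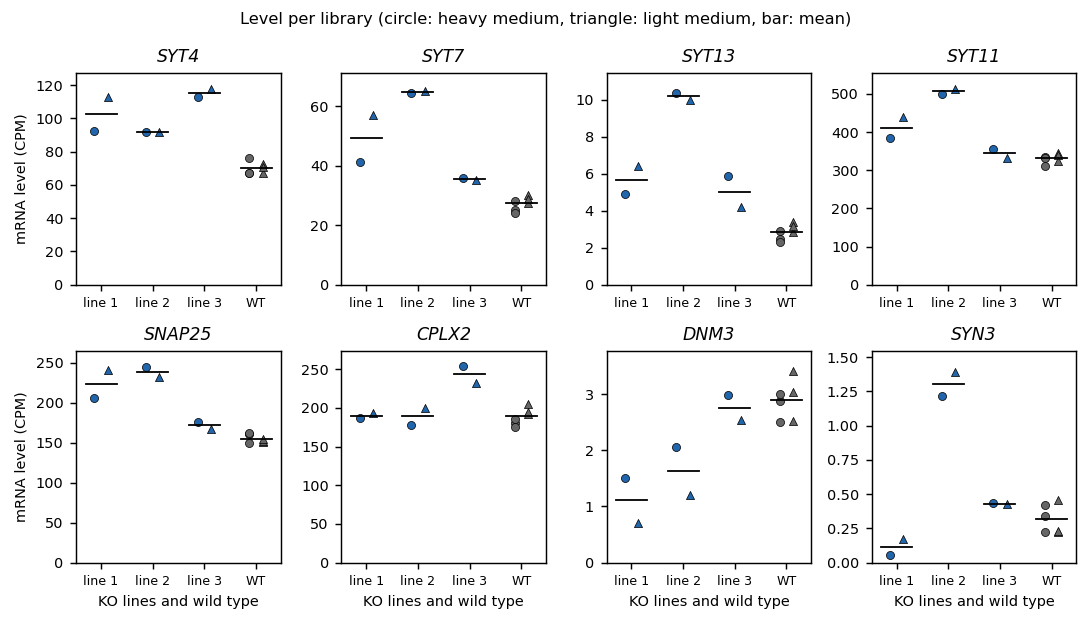
mRNA level in CPM of 8 members in the KO lines (blue) and WT (grey); circles are heavy-medium and triangles light-medium libraries, and bars are means. SYT4 lies above WT in each line, SYT7, SYT13, SYT11 and SNAP25 are highest in line 2, CPLX2 is raised in line 3, and DNM3 and SYN3 are lowest in line 1.

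Among the 9 vesicle membrane and vesicle-associated proteins, 8 were tested and 6 rose over both media; 5, 7 and 1 rose in lines 1, 2 and 3. SV2C (chromosome 5, 76083172 to 76353939, plus strand), a transporter-like vesicle glycoprotein, was at 102 and 124 CPM in line 1, 131 and 122 CPM in line 2 and 102 and 90.2 CPM in line 3, against 76.2, 80.1 and 88.3 CPM in WT. All KO libraries were above all WT libraries, with the light library of line 3 close to the highest WT value. SV2C rose over both media (edgeR adjusted p = 0.00257; log2 0.48, SE 0.0828), with 0.49 in line 1, 0.65 in line 2 and 0.26 in line 3. Its call in line 3 sat at the threshold (adjusted p = 0.0468) and was lost without any of 9 single libraries (adjusted p = 0.0649 to 0.601). Its paralog SV2A, the more abundant of the family, rose by 0.24 (SE 0.0423, adjusted p = 0.00244) and did not overlap either, with 129.8 to 150.8 CPM in KO and 111 to 121 CPM in WT.

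The bases upstream of SV2C (GRCh38.p14, chr5:76083133-76083382, plus strand) follow as those of another member that rose in each line; capitals mark the GC box GGGCGG, here read on the opposite strand as CCGCCC.
SV2C: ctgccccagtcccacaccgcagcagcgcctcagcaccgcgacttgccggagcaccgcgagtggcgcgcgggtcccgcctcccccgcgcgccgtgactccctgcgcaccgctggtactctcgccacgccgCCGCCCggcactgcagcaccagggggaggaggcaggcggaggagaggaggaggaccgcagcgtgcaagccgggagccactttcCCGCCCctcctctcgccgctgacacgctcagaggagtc

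The synaptogyrins, tetraspan proteins of the vesicle membrane, and their relative synaptophysin (SYP) rose in lines 1 and 2. SYNGR1 was at 28.0 and 34.2 CPM in line 1, 36.9 and 32.2 CPM in line 2 and 23.4 and 22.2 CPM in line 3, against 17.3, 19.7 and 20.2 CPM in WT. SYNGR3 was at 18.9 and 23.9 CPM in line 1, 29.9 and 23.7 CPM in line 2 and 11.4 and 14.2 CPM in line 3, against 9.85, 10.9 and 12.2 CPM in WT. SYP was at 107 and 124 CPM in line 1, 133 and 133 CPM in line 2 and 98.7 and 88.0 CPM in line 3, against 81.5, 84.8 and 92.0 CPM in WT. Only SYNGR1 was free of overlap, since for SYNGR3 and SYP 1 library of line 3 fell within the WT range. Over both media the log2 fold changes were 0.61 for SYNGR1 (SE 0.116, edgeR adjusted p = 0.00413), 0.90 for SYNGR3 (SE 0.207, adjusted p = 0.012) and 0.41 for SYP (SE 0.0946, adjusted p = 0.0106). In line 3 none of these 3 passed (adjusted p = 0.13, 0.326 and 0.336).

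The synapsins, phosphoproteins that tether vesicles to each other and to actin, did not move together. SYN1 rose modestly over both media (log2 0.24, SE 0.0588, edgeR adjusted p = 0.0119), at 22.7 to 27.2 CPM in KO and 19.5 to 22.2 CPM in WT. By line, only line 2 passed for SYN1 (adjusted p = 0.126, 0.0012 and 0.117 in lines 1, 2 and 3). SYN2 did not pass over both media (log2 -0.05, adjusted p = 0.686), at 11.7 to 15.8 CPM in KO and 12.7 to 15.4 CPM in WT. SYN3, the remaining paralog, rested on few reads. It had 2 and 6 counts in line 1, 43 and 36 counts in line 2 and 13 and 16 counts in line 3, against 7 to 15 counts in WT libraries. These counts correspond to 0.0582 and 0.17 CPM in line 1, 1.21 and 1.39 CPM in line 2 and 0.435 and 0.426 CPM in line 3, against 0.222, 0.284 and 0.46 CPM in WT (lowest, median, highest). Line 1 was below and line 2 above all WT libraries. SYN3 rose in line 2 (log2 2.03, SE 0.307, edgeR adjusted p = 3.22e-05) and fell in line 1 at the threshold (log2 -1.43, SE 0.515, adjusted p = 0.0456); the fall was lost without any of 9 single libraries (adjusted p = 0.0508 to 0.34). TIMP3, which encodes a metalloproteinase inhibitor from within the SYN3 locus on the opposite strand, was at 19.0 and 33.2 CPM in line 1, 45.3 and 43.8 CPM in line 2 and 7.46 and 5.99 CPM in line 3, against 5.87 to 8.15 CPM in WT. Whether reads were counted by strand is not stated, and a share of TIMP3 reads in the SYN3 counts was not tested.

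Of the 8 SNAREs and fusion regulators, 5 rose over both media, and 5, 5 and 1 rose in lines 1, 2 and 3. SNAP25 (chromosome 20, 10218830 to 10307418, plus strand), the plasma-membrane SNARE that contributes a pair of helices to the fusion complex, was at 206 and 240.2 CPM in line 1, 245 and 233 CPM in line 2 and 175 and 168 CPM in line 3, against 150.0, 153 and 162 CPM in WT. The groups did not overlap. The SNAP25 log2 fold change over both media was 0.44 (SE 0.091, edgeR adjusted p = 0.0059), with 0.52 in line 1, 0.62 in line 2 and 0.14 in line 3 (adjusted p = 0.187). VAMP2, its partner SNARE on the vesicle, was at 81.1 and 86.3 CPM in line 1, 90.9 and 86.6 CPM in line 2 and 59.3 and 64.7 CPM in line 3, against 58.0, 61.8 and 63.7 CPM in WT. It rose over both media (log2 0.35, SE 0.0963, adjusted p = 0.0198), with the libraries of lines 1 and 2 above WT and those of line 3 inside or just above its range (log2 0.02, adjusted p = 0.897). Without any of 3 single libraries this call was lost (adjusted p = 0.0504 to 0.0539).

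The other plasma-membrane SNARE of the list, STX1A, did not follow over both media (log2 0.13, SE 0.0668, edgeR adjusted p = 0.16), at 60.2 to 76.4 CPM in KO and 53.9 to 68.3 CPM in WT. It passed in line 1 (0.23, adjusted p = 0.0404), but not without the heavy library of that line (0.14, adjusted p = 0.373) or without any of 6 others (adjusted p of 0.0509 or more). STXBP5, the syntaxin-binding protein tomosyn, which restrains SNARE assembly, was at 25.1 and 32.3 CPM in line 1, 36.9 and 33.7 CPM in line 2 and 21.98 and 23.7 CPM in line 3, against 19.9, 21.5 and 24.3 CPM in WT. It rose over both media (log2 0.42, SE 0.123, adjusted p = 0.0272), with line 3 inside the WT range (0.08, adjusted p = 0.73), and lost the call without any of 8 single libraries (adjusted p = 0.0523 to 0.0679). NSF, the ATPase that takes spent SNARE complexes apart, rose by 0.28 (SE 0.0677, adjusted p = 0.0103), at 40.8 to 52.9 CPM in KO and 36.7 to 41.8 CPM in WT. VAMP1, a vesicle SNARE that replaces VAMP2 at some synapses, did not pass (0.02, adjusted p = 0.948), and its KO range of 5.59 to 10.5 CPM took in the WT range of 6.18 to 9.13 CPM.

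The complexins, small proteins that clamp and support SNARE complexes, differed in where they changed. CPLX2 (chromosome 5, 175796310 to 175884020, plus strand) was at 186.5 and 193 CPM in line 1, 178 and 200.3 CPM in line 2 and 254 and 232 CPM in line 3, against 176, 189 and 205 CPM in WT. Lines 1 and 2 lay within the WT range, and both libraries of line 3 lay above it. CPLX2 rose in line 3 (log2 0.37, SE 0.0562, edgeR adjusted p = 0.000469; without the line 3 heavy library 0.0972), with 0.01 in line 1 and 0.00 in line 2. The difference between lines was itself past the threshold, at -0.36 for line 1 minus line 3 (adjusted p = 0.00231) and -0.37 for line 2 minus line 3 (adjusted p = 0.000791). CPLX1, by contrast, was at 27.8 to 34.1 CPM in KO and 22.5 to 30.9 CPM in WT and rose over both media (log2 0.31, SE 0.0827, adjusted p = 0.0178). Its log2 fold change was 0.24, 0.38 and 0.29 in lines 1, 2 and 3, and only line 2 passed (edgeR adjusted p = 0.111, 0.009 and 0.143).

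Of the 11 priming, docking and active zone genes, 10 were tested and 5 rose over both media; 6, 8 and 1 rose in lines 1, 2 and 3. RAB3B, a small GTPase of secretory vesicles that is abundant in endocrine cells, had the second largest fold change among members. It stood at 7.47 and 14.6 CPM in line 1, 16.98 and 15.7 CPM in line 2 and 9.14 and 6.50 CPM in line 3, against 4.64, 5.04 and 5.65 CPM in WT. Each KO library exceeded each WT library, and the libraries of lines 1 and 3 differed from each other within the line. The log2 fold change of RAB3B was 1.21 (SE 0.234, edgeR adjusted p = 0.00539), 1.11 in line 1, 1.70 in line 2 and 0.62 in line 3 (adjusted p = 0.0965). RAB3C rose over both media (log2 0.38, adjusted p = 0.0258), at 39.7 to 61.5 CPM in KO and 35.8 to 40.8 CPM in WT. Its call was lost without any of 7 single libraries (adjusted p = 0.0504 to 0.0626). RAB3A, the main vesicle Rab of neurons and the most abundant of the 3 per kilobase, did not pass (log2 0.03, SE 0.0628, adjusted p = 0.788), at 37.6 to 48.2 CPM in KO and 39.5 to 44.0 CPM in WT.

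The RIM proteins link Rab3 on the vesicle to the active zone. RIMS1 (chromosome 6, 71886703 to 72403143, plus strand), the large scaffold isoform gene, was at 6.72 and 8.09 CPM in line 1, 7.53 and 7.14 CPM in line 2 and 8.47 and 6.50 CPM in line 3, against 4.12, 5.03 and 6.36 CPM in WT. All KO libraries were above all WT libraries, by a small margin. RIMS1 rose over both media (edgeR adjusted p = 0.00446; log2 0.54, SE 0.107), and by a log2 of 0.54, 0.53 and 0.55 in lines 1, 2 and 3 (adjusted p = 0.00782, 0.00585 and 0.0283). Among the lines it did not differ past the threshold (adjusted p = 0.996). The call in line 1 was lost without its light library (adjusted p = 0.203), that in line 2 without its heavy library (adjusted p = 0.133), and that in line 3 without its heavy library (adjusted p = 0.676) or any of 3 WT libraries. RIMS3, a short form that holds only the C-terminal domain, was at 177 and 218 CPM in line 1, 199.7 and 219.9 CPM in line 2 and 141 and 147 CPM in line 3, against 126, 139.5 and 158 CPM in WT. Lines 1 and 2 lay above the WT range and line 3 within it. RIMS3 rose over both media (log2 0.39, SE 0.101, adjusted p = 0.0176), and had 0.49, 0.58 and 0.04 in lines 1, 2 and 3. RIMS2, at 18.3 to 32.3 CPM in KO and 20.3 to 25.8 CPM in WT, did not pass over both media (log2 0.16, adjusted p = 0.371) but rose in line 2 (0.41, adjusted p = 0.00131; without the line 2 heavy library 0.0921).

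Priming factors of the Munc13 family differed in size of change. The UNC13B log2 fold change was 0.21 (SE 0.0587, edgeR adjusted p = 0.0199), with 56.5 to 70.8 CPM in KO and 51.2 to 57.0 CPM in WT, whereas UNC13A did not pass (-0.07, SE 0.0402, adjusted p = 0.232), at 129 to 141 CPM in KO and 135 to 148 CPM in WT. The call of UNC13B was lost without the light library of line 2 (adjusted p = 0.0518) or the second light library of WT (adjusted p = 0.0524). CADPS, which primes dense-core granules, was at 2.09 to 5.13 CPM in KO and 2.45 to 3.02 CPM in WT and rose in line 2 (log2 0.84, adjusted p = 5.77e-05). Line 2 exceeded the other lines in CADPS, with a line 1 minus line 2 difference of -1.005 (adjusted p = 0.0022) and a line 2 minus line 3 difference of 0.68 (adjusted p = 0.00588). RPH3A, the Rab3 effector rabphilin, at 92.5 to 132 CPM in KO and 97.6 to 110.3 CPM in WT, rose in lines 1 and 2 (0.23 and 0.33) but did not pass over both media (0.19, adjusted p = 0.0713); in line 1 it needed both libraries (adjusted p = 0.0812 without heavy and 0.098 without light).

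Of the 4 endocytic genes, 3 were tested. DNM1, the neuronal dynamin that cuts vesicles from the membrane, was at 146.5 and 174 CPM in line 1, 183 and 165 CPM in line 2 and 133 and 127 CPM in line 3, against 108, 114 and 120 CPM in WT. Every KO library was above every WT library. The DNM1 log2 fold change was 0.45 (SE 0.0837, edgeR adjusted p = 0.00348), with 0.50 in line 1, 0.62 in line 2 and 0.20 in line 3 (adjusted p = 0.0875). SYNJ1, the lipid phosphatase synaptojanin that helps vesicles shed their clathrin coat, was at 14.9 to 25.1 CPM in KO and 14.8 to 17.2 CPM in WT. It rose in lines 1 and 2 (0.33 and 0.66) but did not pass over both media (0.34, adjusted p = 0.0793). In line 1 its call was lost without the light library (adjusted p = 0.683).

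DNM3 (chromosome 1, 171841498 to 172418466, plus strand), a paralog of DNM1 found at postsynaptic and other membranes, went the other way in lines 1 and 2. It was at 1.51 and 0.707 CPM in line 1, 2.06 and 1.197 CPM in line 2 and 2.98 and 2.53 CPM in line 3, against 2.50, 2.94 and 3.42 CPM in WT. The 4 libraries of lines 1 and 2 were below all WT libraries and those of line 3 were within their range. The counts behind these values ranged between 25 and 104. DNM3 fell by 1.40 on the log2 scale in line 1 (SE 0.242, edgeR adjusted p = 0.000279) and by 0.81 in line 2 (SE 0.23, adjusted p = 0.0078, and 0.156 without the light library of line 2); in line 3 it did not pass (-0.07, adjusted p = 0.892). DNM3OS, a noncoding transcript on the opposite strand of the locus, was at 3.00 and 1.84 CPM in line 1, 1.18 and 1.04 CPM in line 2 and 2.44 and 4.02 CPM in line 3, against 3.99 to 5.29 CPM in WT, and its share in the DNM3 counts was not tested. The sequence upstream of DNM3 (GRCh38.p14, chr1:171841248-171841497, plus strand) is shown beside those of the genes that rose; capitals mark the E-box CAGCTG and the GC box GGGCGG or CCGCCC.
DNM3: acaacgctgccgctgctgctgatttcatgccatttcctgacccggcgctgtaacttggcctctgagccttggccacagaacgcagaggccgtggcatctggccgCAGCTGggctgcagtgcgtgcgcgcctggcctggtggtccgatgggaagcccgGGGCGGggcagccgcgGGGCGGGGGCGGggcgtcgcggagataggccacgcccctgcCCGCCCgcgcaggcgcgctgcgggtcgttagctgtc

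The KO lines differed from each other in most members. A test over the 3 lines passed for 27 of 35 members, while 23.2% of all genes passed. Line 2 exceeded line 3 in 24 members and was below it in 3 (14.4% and 13.1% of all genes), and line 1 exceeded line 3 in 14 and was below it in 3 (6.75% and 5.11%). Lines 1 and 2 were closer: 5 members, SYT7, SYT11, SYT13, SYN3 and CADPS, were lower in line 1, and 0 were higher (1.76% and 0.982% of all genes, 2.74% in either direction). Line 2 had the highest line mean in 25 of the 35 members, and line 3 the lowest in 26. The matching shares over all genes were not computed. Against WT, 28.2%, 43% and 5% of all genes passed in lines 1, 2 and 3, so line 2 departed most from WT over all genes as well. The smallest adjusted p-values for a difference among lines belonged to RIMS3 (2.28e-05), SYT11 (3.22e-05) and SYT7 (3.52e-05). Line 2 minus line 3 was 0.54 for RIMS3 (SE 0.0666), 0.56 for SYT11 (SE 0.0675), 0.87 for SYT7 (SE 0.106), 0.52 for VAMP2 (SE 0.0729) and 1.07 for SYNGR3 (SE 0.145), all past the threshold. SYT4, CPLX2 and RAB3A ran against this order, with line 2 minus line 3 at -0.32 for SYT4 (adjusted p = 0.00691), -0.37 for CPLX2 (adjusted p = 0.000791) and -0.29 for RAB3A (adjusted p = 0.0112). Among the lines, the calls of SYT4 and RAB3A were lost without either library of line 3 or of line 2, that of RAB3A also without the second light library of WT, and that of CPLX2 without the heavy library of line 3. Single libraries also ended those of UNC13B (4 libraries, adjusted p = 0.0837 to 0.13), VAMP1 (3, 0.0587 to 0.221), SV2C (2, 0.0802 to 0.106), RPH3A (2, 0.052 to 0.275) and RAB3B (1, 0.117).

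Differences between the isotope media were small in the members. In heavy against light medium, 6 of the 35 tested members had a positive log2 fold change. The median was -0.0469 over members and -0.00017 over all genes. Heavy against light medium gave 0 calls among the members and 0 among all genes with edgeR, where 1099 genes had an unadjusted p under 0.05, and DESeq2 called 1 member and 13 genes. Without a filter on low counts edgeR called 1 member and 219 genes. The member with the smallest p was RIMS3 (log2 -0.20, adjusted p = 0.236). The interaction of genotype and medium gave 0 calls among members and 0 among all genes, with 149 genes at an unadjusted p under 0.05 and 0 genes called by DESeq2. Between KO and WT within a single medium, with 3 libraries a group, 0 members passed in heavy medium (0.112% of all genes rose) and 1 rose in light medium (0.906% of all genes rose).

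Promoter windows, 250 bases before to 50 after a RefSeq start on GRCh38.p14, were available for 30 of the 38 members and were searched on both strands for short motifs. A gene counted once if any of its listed starts held the letters. The GC box GGGCGG, read by Sp-family factors, was in 76.7% of the member genes and 48.3% of 27305 genes. CCAAT was in 23.3% and 39.7%, the E-box CAGCTG in 23.3% and 21.1%, the E-box CAGGTG in 23.3% and 24.1%, the cyclic AMP response element TGACGTCA in 3.33% and 2.25%, TATAAA in 3.33% and 14%, and the palindromic NRF1 site in 0% and 1.52%. The left part TTCAGCACC of RE1, the element bound by the neuronal gene repressor REST, was in 6.67% and 0.469%, that is in SYN1 and UNC13A. The canonical right part of RE1 was in 3.33% (UNC13A) and 0.326%. These matches describe letters and not binding. The RE1-like stretches of both genes are printed because the element is the best known silencer of neuronal genes, with matching parts in capitals: that of SYN1 lies at chrX:47620070-47620090 on the minus strand, bases -233 to -213 from the start, and that of UNC13A at chr19:17688340-17688366, printed from the plus strand although the gene lies on the minus strand, bases -12 to 15.
SYN1: TTCAGCACCgcggacagtgcc
UNC13A: TTCAGCACCgggggcgcGGACAGCGCC

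SYN1 also held the only cyclic AMP response element among the matched members, and its upstream bases (GRCh38.p14, chrX:47619858-47620107, minus strand) show it with the RE1 part, both in capitals. SYN1 rose and UNC13A did not pass, as given above.
SYN1: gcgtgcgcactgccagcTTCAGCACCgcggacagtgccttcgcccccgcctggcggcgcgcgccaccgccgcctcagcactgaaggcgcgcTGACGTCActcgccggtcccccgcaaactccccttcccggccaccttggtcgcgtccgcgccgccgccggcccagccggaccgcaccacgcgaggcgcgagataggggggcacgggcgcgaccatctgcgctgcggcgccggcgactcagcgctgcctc

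Genes of the same pathway outside the 38 members were described through 5 further lists. Their counts stand beside 15% of all genes that rose and 9.78% that fell. With counts summed per line, 1 gene of the 5 lists passed (SVOP, below), and 0 passed in the other 4 lists. Of 15 tested further synaptotagmins and relatives with C2 domains, 7 rose and 0 fell over both media (median log2 0.43). SYT9, a granule and vesicle calcium sensor, was nearly silent in WT cells, at 0.0376 CPM, and averaged 1.53 CPM in line 1, 4.0 CPM in line 2 and 0.287 CPM in line 3. SYT17 averaged 18.2 ± 5.77 CPM in KO and 9.73 ± 0.468 CPM in WT (SD, n = 6 each), which passed in the edgeR test (adjusted p = 0.00599; log2 0.90, SE 0.18), and SYTL3, an effector of Rab27, rose by 0.91 (adjusted p = 0.00766). Among 26 tested active zone and Rab factors 8 rose and 1 fell (median 0.19), with RAB3D at a log2 of 0.29 and MADD, a Rab3 exchange factor, at 0.25.

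Of 24 tested further SNAREs and fusion factors, 7 rose and 1 fell (median 0.14). UNC13D, the Munc13 of granule release in blood cells, averaged 119.7 CPM in line 1, 147 CPM in line 2 and 60.2 CPM in line 3, against 27.1 CPM in WT (log2 2.00 over both media, SE 0.271, edgeR adjusted p = 0.00176), a larger fold change than that of any member. STX3 rose by 0.64 (adjusted p = 0.00778), and SNAP23, the widely expressed relative of SNAP25, fell by 0.53 on the log2 scale (adjusted p = 0.00442). Of 25 tested further vesicle membrane proteins, 15 rose and 1 fell (median 0.19). SVOP, an SV2-related vesicle protein, rose by 0.61 (adjusted p = 0.000973, and 0.0458 with counts summed per line, where UNC13D, STX3, SNAP23, SYT9 and SYT17 were at 0.0629 to 0.0862), VAT1 by 0.31 and the proton pump subunit gene ATP6V0D1 by 0.28. Of 34 tested endocytosis and recycling genes, 7 rose and 3 fell (median 0.08), shares near those of all genes. The adaptor and clathrin genes AP2B1 (0.27) and CLTB (0.33) rose, and SGIP1, an endocytic regulator, fell by 0.35 on the log2 scale (adjusted p = 0.00943).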

How the data were processed

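RNA of 12 libraries of SH-SY5Y cells was analysed from the deposited table of raw counts, whole numbers of reads per gene. Per the labels' protocols, libraries were made with a stranded poly(A) kit. Per the submitters' processing notes, bcl2fastq 2.19.0, STAR 2.7.0f, the genome build GRCh38.p13, featureCounts of Subread 1.6.4, DESeq2 1.22.1 and R 3.5.1 were used by the authors. Neither the annotation nor the strand setting of the counting is stated, and counts of overlapping or antisense genes (for example at SNAP25, SYP, SYN1, SYN2, SYN3, DNM1 and DNM3) and of near-identical genes are uncertain.

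The counts were tested in R 4.3.3 with edgeR 4.0.16: TMM scaling, filterByExpr, a quasi-likelihood fit with robust settings, F tests and Benjamini-Hochberg adjustment over all 16704 genes, threshold 0.05. The 3 line contrasts and the test among lines came from 1 fit of line and medium to all 12 libraries, and KO against WT from a fit of genotype and medium. SE were derived from F. CPM per kilobase used the union exon length of GENCODE 29 on GRCh38, in which all 38 members were found. Promoter sequences are from RefSeq (GRCh38.p14). The scripts were tested on simulated data.

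Alternatives were RLE factors, no filter, 1 CPM in 3 libraries, DESeq2 1.42.0, limma-voom (limma 3.58.1), a replicate block, each library and each line left out, each medium alone, counts summed per line, line as a correlated block, and a fit on the line's own libraries with WT. For the fit with counts summed per line, heavy and light WT libraries with the same number were also summed. The members and lists were chosen with earlier results of these data known. Values in every library are given for up to 14 members that passed over both media and in at least 2 lines with 1 direction, the 6 with the smallest p among lines, the 4 with the highest CPM, members that fell in a line, and FMR1. Up to 3 genes per further list were named by smallest p.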

Additional observations from a re-analysis of the deposited data

Results flagged for a closer look

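For 27 members the change against WT differed among the 3 KO lines in the edgeR quasi-likelihood test (Benjamini-Hochberg adjusted p under 0.05 over all genes; 23.2% of all genes passed). Among the synaptotagmins the adjusted p was 0.00112 for SYT1, 0.0224 for SYT4, 0.00101 for SYT5, 3.52e-05 for SYT7, 3.22e-05 for SYT11 and 0.000618 for SYT13. Among vesicle proteins it was 0.00938 for SV2C, 0.000106 for SYN3, 0.000377 for SYP, 0.000937 for SYNGR1 and 0.000117 for SYNGR3. Among SNAREs and fusion regulators it was 0.0363 for VAMP1, 8.95e-05 for VAMP2, 0.000207 for SNAP25, 0.00159 for STXBP5 and 0.000767 for CPLX2. Among priming genes it was 0.0243 for UNC13B, 0.000744 for CADPS, 0.0322 for RAB3A, 0.0104 for RAB3B, 0.000687 for RAB3C, 0.00121 for RIMS2, 2.28e-05 for RIMS3 and 0.0108 for RPH3A. Among endocytic genes it was 0.00217 for DNM1, 0.0057 for DNM3 and 0.000666 for SYNJ1.

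No KO or WT library stood apart from the other 5 of its genotype by Dixon's test in any of the 70 sets of values examined (35 members in each genotype, critical ratio 0.625). FMR1 was not among these sets. Its level in the heavy library of line 1 was 22.4 CPM, against 7.19 to 12.8 CPM in the other KO libraries. The test looks for a single library, so a line that deviates in both of its libraries can go unseen.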

How the results depend on the processing

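Over both media, 23 members passed; 13 passed without line 2, 0 in heavy medium alone, 1 in light medium alone, 2 with counts summed per line, and 17 to 26 with 1 library left out. In line 1, 26 passed, and 17 to 26 with 1 library left out, the lowest without its light library. In line 2, 29 passed, and 26 to 29. In line 3, 6 passed, 3 in a fit with a replicate block and 1 to 8 with 1 library left out, 1 without its heavy library. The test among lines passed for 27, and for 21 to 28. Heavy against light medium called 0, but 1 without a filter on low counts (219 over all genes) and 1 with DESeq2. Over all genes, KO against WT called 4135, but 18 in heavy medium alone, 231 in light medium alone and 272 with counts summed per line. No called member changed sign under any alternative run. The calls of 17 members in line 1, 25 in line 2, 1 in line 3 and 0 over both media held under all of them. Deviations of KO and WT libraries with the same number correlated between -0.118 and -0.0117, so the numbers do not pair KO with WT. The heavy and light libraries of a KO line correlated at 0.0886, 0.618 and 0.661 in lines 1, 2 and 3. The heavy library of line 1 correlated at 0.164 with the light library of line 3. The light library of line 1 correlated at 0.408 with the heavy library of line 2. These correlations thus do not mark the libraries of line 1 as a pair. SV2B, CADPS2 and AMPH had too few reads to be tested.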

Other observations

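Across the 35 tested members, rank correlations of the signed log2 fold change over both media with abundance and length were weak. Spearman's rho with that change was -0.215 for the WT level per kilobase and -0.225 for the WT CPM. It was -0.118 for gene span and 0.0185 for exon length. Because rises and falls keep their sign here, the values do not describe the size of a change. These are descriptions over genes that share their libraries.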
